A study of Drosophila melanogaster with 7 samples.

Results

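Most genes of a fly genome annotation that carry a CR number make RNA with no long reading frame, and 6 of them passed a level threshold in sequenced nuclei of adult Drosophila neurons or in whole brain. They were chosen by their level: a gene with a CR number, other than roX1 and roX2, was taken where it had at least 1 FPKM in at least 2 of 6 libraries. FPKM counts sequenced fragments per kilobase of a transcript and corrects for the size of the library. That left 6 of 1430 such genes and 6 of 15551 fly genes in all. The 6 are the long noncoding RNA genes Hsromega (CR31400), CR43459 and CR42862, the small nucleolar RNA gene snoRNA:Me28S-G980 (CR34671), and the mitochondrial tRNA genes mt:tRNA:C (CR34065) and mt:tRNA:W (CR34064). Since the levels themselves chose these genes, their presence and their height are a description and not a finding.

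Noncoding RNAs differ in where in the cell they act. Some long noncoding RNAs stay in the nucleus and gather proteins around the site where they are made. In flies the long transcript of Hsromega does this: it nucleates omega speckles, which store RNA-binding proteins of the hnRNP class, and it is strongly induced by heat shock. Small nucleolar RNAs are usually cut from introns of host genes and guide chemical marks onto ribosomal RNA in the nucleolus. Mitochondrial tRNAs are made and used inside mitochondria, outside the nucleus.

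Nuclei were collected from heads of adult flies whose GAL4 line switched on a GFP-tagged unc84 protein of the nuclear envelope. OK107-GAL4 is active mainly in Kenyon cells, the neurons that make up the mushroom body, Tdc2-GAL4 mainly in octopaminergic neurons, and R57C10-GAL4 in all mature neurons. The remaining group was the whole dissected brain with all of its cells, which was not taken from tagged nuclei by its title, although its molecule is labelled as nuclear RNA. No treatment and no age beyond adult is given, and each nuclei library drew on pooled heads. The deposited tables hold 2 OK107 libraries (a and b), 2 Tdc2 libraries (a and b), 1 R57C10 library and 1 whole brain library. For R57C10 the labels list 2 samples, and whether the 1 column is either of them or both pooled is not stated. OK107 a, OK107 b and Tdc2 a carry an earlier date tag in their column names, and Tdc2 b, R57C10 and whole brain a later one. OK107 a and Tdc2 a hold no reads of spike-in RNA, which the other 4 libraries do hold. Steps between low FPKM values implied 23.3 to 57.8 M reads per library.

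The labels of OK107 and Tdc2 held against marker genes. Kenyon cell genes (ey, prt, rut and dac) summed to between 596 and 600 FPKM in OK107, between 69.6 and 76.2 in Tdc2, 167 in R57C10 and 54.1 in whole brain. Tdc2 and Tbh, which encode enzymes of octopamine synthesis, summed to between 1778 and 2250 FPKM in Tdc2 libraries and to between 19.4 and 41.0 in the other 4. The 4 neuronal genes with a value in every library summed to between 2095 and 2559 FPKM in nuclei, against 1518 in whole brain. They were not all higher in each kind of nuclei. In Tdc2 elav had 170 and 153 FPKM, against 161 in whole brain. In OK107 n-syb had 976 and 934 FPKM and in R57C10 1096, against 1112. The others, cac and Rdl, were above whole brain in every nuclei library. Nuclei and whole brain also differed in the levels of marker genes of other cells. The 6 glial markers with a value in every library summed to between 92.4 and 511 FPKM in nuclei, against 3264 in whole brain. The 8 photoreceptor genes summed to between 723 and 5838 FPKM in nuclei, against 475 in whole brain, with ninaE the bulk of the sum in nuclei. norpA was at 142 and 142 FPKM in OK107 and 156 in R57C10, against 198 in whole brain. In R57C10 Rh5 and Arr2 were also below whole brain, at 3.82 and 50.8 FPKM, against 4.52 and 64.4. ninaE, Rh3, Rh4, Rh6 and trp lay above it there. The 6 fat body genes summed to between 55.2 and 57.7 FPKM in OK107 and between 5330 and 6057 in Tdc2. They summed to 360 FPKM in R57C10 and 3890 in whole brain. Yp1, Yp2 and Yp3 were the bulk of the sum in every library, and the other members did not follow it. The gene named to ran from 1.65 to 11.97 FPKM in nuclei, against 0.683 in whole brain. Lsp2 and Fbp1 were below whole brain in every nuclei library. In Tdc2 Lsp2 had 1.57 and 5.03 FPKM, against 40.8 in whole brain. The 3 hemocyte genes with a value in every library summed to between 4.02 and 14.4 FPKM in nuclei, against 19.7 in whole brain, and 6 muscle genes to between 57.6 and 454, against 79.5. In bulk RNA fewer cells of a type and less RNA per cell cannot be told apart, and nuclei against whole tissue and heads against dissected brains change together here. The part of these cells in the differences below was not tested.

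Few noncoding genes had any value above 0. Of 1432 genes with a CR number, roX1 and roX2 included, 17 (1.19%) were above 0 in at least 1 library, against 96.6% of 14119 genes with a CG number, most of which encode proteins. A further 1253 were listed at 0 in every library, 147 had no value in any library, and 15 had only zeros and missing values. By RefSeq gene type, 10 of 207 long noncoding RNAs and 3 of 53 antisense RNAs were above 0, as were 2 of 310 tRNAs and 1 of 257 small nucleolar RNAs. No microRNA gene (0 of 236) and no ribosomal RNA gene (0 of 100) was.

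These zeros include RNAs that every cell uses, so they are reported only as listed at 0. All 5 genes of the U1 and all 6 of the U2 spliceosomal RNA were listed at 0, as were both genes of the 7SL RNA of the signal recognition particle and all 96 genes of 5S ribosomal RNA. Among mitochondrial genes both ribosomal RNA genes and 20 of 22 tRNA genes were listed at 0. In protein genes an exact 0 in every library was rare, with 158 of 14119 genes. A listed 0 for a small RNA is therefore not read here as its absence.

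**Figure D1:**
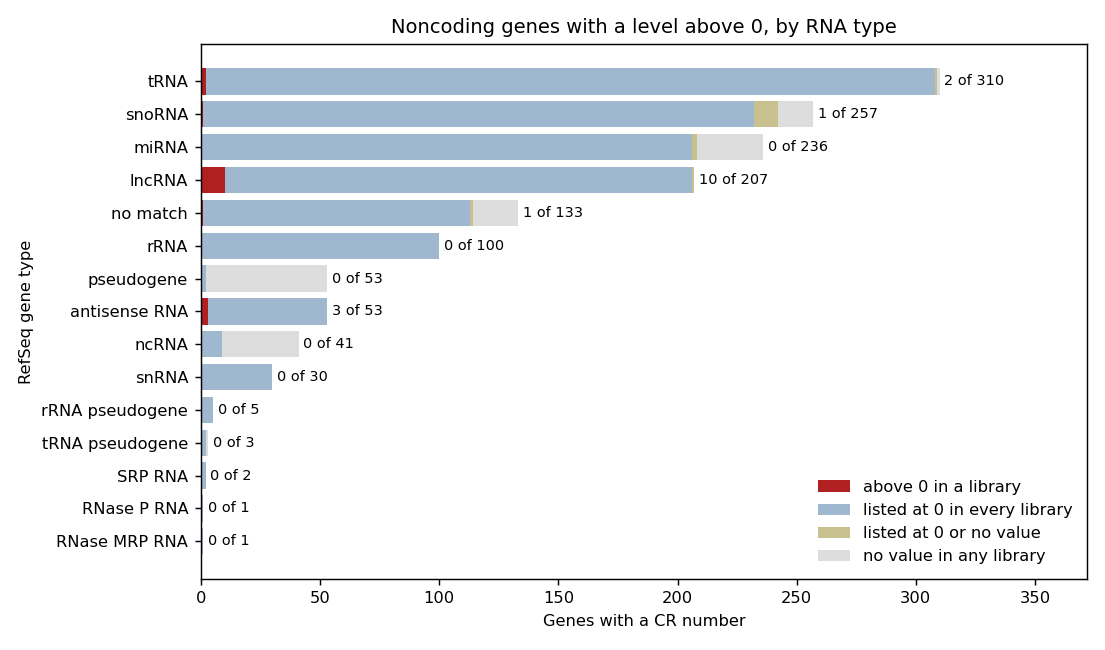
Genes with a CR number by RefSeq gene type (rows) and by what the tables list for them; bar length is the number of genes, and the figures at the bar ends give those above 0 in at least 1 library out of all of that type. Long noncoding RNA holds 10 of the 17 genes above 0, while 206 of 236 microRNA genes and all 100 ribosomal RNA genes were listed at 0 in every library.

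The threshold fell in a gap. The lowest genes inside it by their second highest level were CR42862 at 1.42 FPKM, CR43459 at 1.91 and snoRNA:Me28S-G980 at 2.29. The highest outside it were CR30055 at 0.510 FPKM, CR43480 at 0.471 and CR31144 at 0.307. Set among all genes with a value, Hsromega lay above 57.5% to 76.4% of them in nuclei libraries and above 48.7% in whole brain. CR43459 lay above 38.7% to 51.3% in nuclei and 34.4% in whole brain, and CR42862 above 29.8% to 41.1% in nuclei and 31.7% in whole brain. mt:tRNA:C lay above 48.7% to 77.0% in nuclei and 80.5% in whole brain.

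Among the 6 genes Hsromega was the most abundant of the 3 long noncoding RNAs. It had 6.71 and 5.73 FPKM in OK107, 5.66 and 14.7 in Tdc2 and 11.4 in R57C10, against 1.96 in whole brain. All 5 nuclei libraries lay above whole brain, by 2.89- to 7.48-fold. On the log2(FPKM + 1) scale the mean of the nuclei groups was higher by 1.71 (SE 0.45, limma adjusted p = 0.0259). By kind of nuclei the differences were 1.28 in OK107 (SE 0.50, adjusted p = 0.0825), 1.79 in Tdc2 (SE 0.50, adjusted p = 0.0349) and 2.06 in R57C10 (SE 0.58, adjusted p = 0.0317). Tdc2 a, at 5.66 FPKM, lay below both OK107 libraries, so the larger Tdc2 estimate comes from Tdc2 b. The difference passed in Tdc2 and R57C10 nuclei and did not pass in OK107. That does not show OK107 to be lower than the others: OK107 against R57C10 gave −0.78 (SE 0.50, adjusted p = 0.284) and OK107 against Tdc2 gave −0.50 (SE 0.41, adjusted p = 0.342).

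Among nuclei Hsromega was higher in the 2 libraries of the later date tag, but only the Tdc2 pair spans both tags. The 3 nuclei libraries of the earlier tag, which hold both OK107 libraries and 1 of Tdc2, lay between 5.66 and 6.71 FPKM, and the 2 of the later tag at 11.4 and 14.7. The Tdc2 pair differed by 2.59-fold and the OK107 pair by 1.17-fold. Both pairs also differ in spike-in status, absent in a and present in b. For OK107 and R57C10 tag and cell type cannot be told apart, and the part of either was not tested. Whole brain carries the later tag, and within that tag Hsromega was 7.48-fold higher in Tdc2 b and 5.79-fold higher in R57C10 than in whole brain. No library of the earlier tag is whole brain, so the OK107 difference has no value within a tag.

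**Figure D2:**
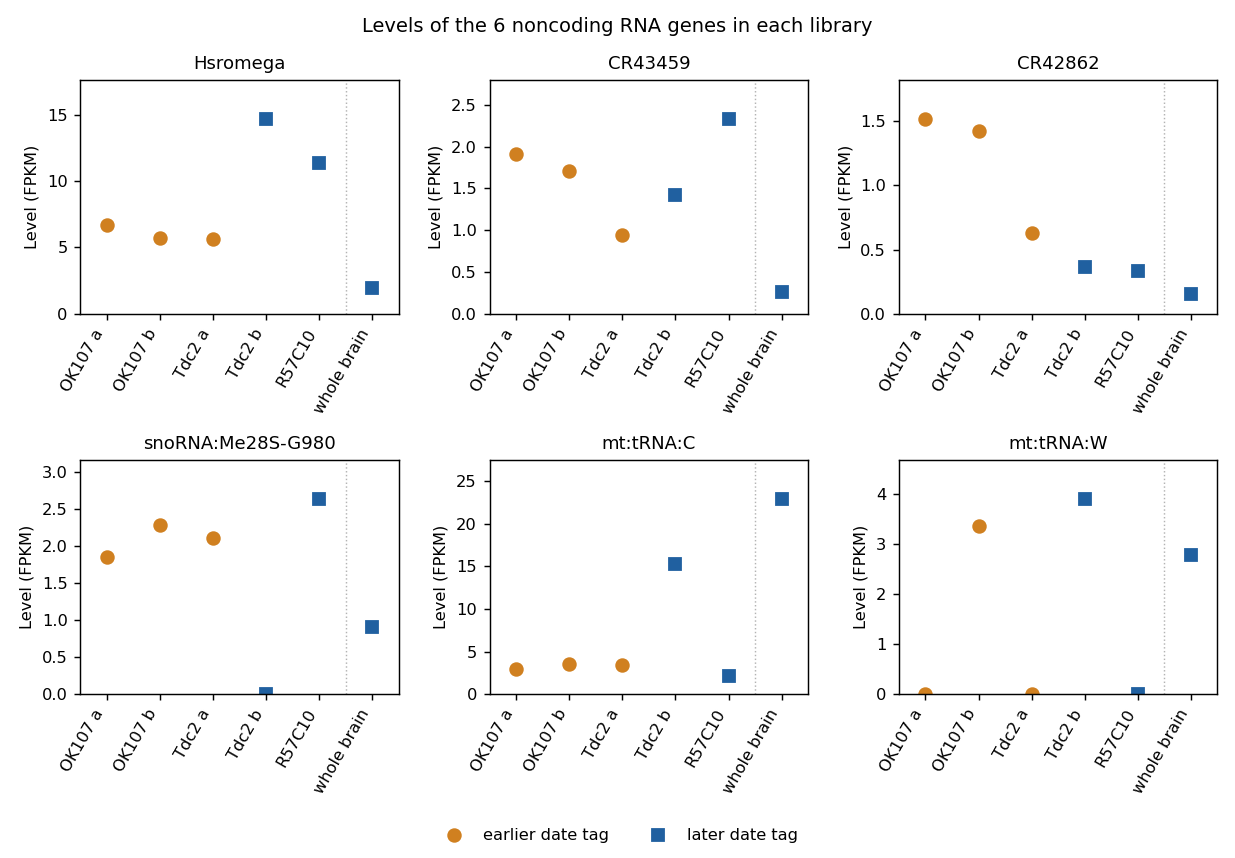
Level (FPKM, linear axis from 0) of each of the 6 genes in each library; each point is 1 library, circles carry the earlier and squares the later date tag, and the dotted line sets whole brain apart. Hsromega, CR43459 and CR42862 are above whole brain in all 5 nuclei libraries, and mt:tRNA:C is below it in all 5.

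Both protein genes within 3 kb of Hsromega, on the other strand, were higher in nuclei as well. SIFaR, a neuropeptide receptor gene, had 18.9 and 18.6 FPKM in OK107, 40.6 and 47.4 in Tdc2 and 20.5 in R57C10, against 10.2 in whole brain (log2 difference 1.26, SE 0.13, limma adjusted p = 0.00169). The other, aus, ran from 101 to 179 FPKM in nuclei, against 59.0 in whole brain (1.31, SE 0.14, adjusted p = 0.00195).

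The Hsromega value rests on 1 of 5 isoforms. Isoform RB had the whole level of the gene in every library, RD and RE were listed at 0, and RA and RC had no value in any library. In the current annotation RB is a long form without a spliced intron, 14086 bases in its span and in its exons alike, whereas RA and RC are short forms of 1176 and 1888 bases. With RA and RC unvalued, the share of long and short transcripts could not be given. Among all genes, 677 had a value while an isoform of theirs had none. In the fit across isoforms, RB was higher in nuclei by the same 1.71 (SE 0.50), with a limma adjusted p of 0.0611. Among the isoforms of the 6 genes 1 passed, where 37.4% of 14827 isoforms did. It was RB of CR43459, a gene that reached the threshold through nuclei libraries only, so nothing is read from that call.

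Genes of proteins known from omega speckles in flies did not move in 1 direction. Of 8 such genes 7 were tested, of which sqd was higher in nuclei and Hrb87F lower, while Hrb98DE, bl, nonA, Pep and caz did not pass. Over all 9605 genes tested in this comparison 57.7% passed, 27.0% higher and 30.8% lower, and that background applies to each list below. TBPH had no value in Tdc2 a and was not tested. The median difference of the 7 was −0.17, against −0.07 over all genes tested. Hrb87F, an hnRNP protein that binds the long Hsromega transcript, had 36.8 and 37.1 FPKM in OK107, 42.6 and 36.6 in Tdc2 and 30.4 in R57C10, against 54.3 in whole brain (log2 difference −0.60, SE 0.12, adjusted p = 0.0118). The other hnRNP gene that moved, sqd, ran from 187 to 274 FPKM in nuclei, against 179 in whole brain (log2 difference 0.41, SE 0.11, adjusted p = 0.0240). After quantile normalization sqd alone passed.

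CR43459 is a long noncoding RNA gene on chromosome 3R whose transcripts overlap microRNA genes. In the current annotation isoform RB holds mir-277 within its exon, isoform RC holds mir-277 and mir-34, and mir-317 lies within 3 kb on the same strand. Its level was 1.91 and 1.71 FPKM in OK107, 0.938 and 1.42 in Tdc2 and 2.33 in R57C10, against 0.256 in whole brain. Every nuclei library was above whole brain, by 3.67-fold in Tdc2 a up to 9.12-fold in R57C10. The gene passed the level threshold through 4 nuclei libraries only, and its difference from whole brain is therefore given without a test: 1.12 on the log2(FPKM + 1) scale (SE 0.19). Within the later date tag its level was 5.56-fold higher in Tdc2 b and 9.12-fold higher in R57C10 than in whole brain.

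The microRNA genes themselves could not be followed. In the tables mir-34 and mir-317 were listed at 0 in all 6 libraries and mir-277 had no value. The whole level of CR43459 was assigned to RB, an unspliced form of 6542 bases, and RA had no value. Fmr1, a protein gene within 3 kb on the other strand, had 37.4 and 37.6 FPKM in OK107, 39.7 and 35.9 in Tdc2 and 35.1 in R57C10, against 50.2 in whole brain. It thus differed from whole brain in the direction opposite to CR43459 (log2 difference −0.44, SE 0.11, limma adjusted p = 0.0214).

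Genes of microRNA processing moved in both directions. Of 5 tested, Dcr-1, which cuts precursors into mature microRNAs, was higher in nuclei (4.24 to 5.84 FPKM, against 3.14 in whole brain, adjusted p = 0.0267). Its partner loqs was lower (12.5 to 24.2 FPKM, against 25.4, adjusted p = 0.0227), and its call was lost after median centring and after quantile normalization. The other 3, drosha, pasha and AGO1, did not pass, and the median difference of the list was 0.19, against −0.07 over all genes tested. The share called, 2 of 5, was below the background of 57.7%.

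CR42862, a long noncoding RNA gene on chromosome 3L, stood apart in Kenyon cell nuclei. Its level was 1.52 and 1.42 FPKM in OK107, 0.628 and 0.364 in Tdc2 and 0.336 in R57C10, against 0.157 in whole brain. Both OK107 libraries were above all other libraries, by more than the gap between the 2 Tdc2 libraries, and the OK107 pair agreed to within 1.07-fold. It entered the set through the OK107 libraries alone, so its height in OK107 is what chose it and no test is given for it here. On the log2(FPKM + 1) scale the differences were 0.73 from Tdc2 (SE 0.16) and 0.89 from R57C10 (SE 0.19). The median of all genes tested also lay higher in OK107, by 0.28 against Tdc2 and by 0.30 against R57C10, and after median centring the differences of CR42862 were 0.42 and 0.43. Within the earlier date tag, CR42862 in OK107 was at 1.52 and 1.42 FPKM, against 0.628 in Tdc2 a.

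All of the CR42862 level was assigned to RB among 5 isoforms, and the other 4 were listed at 0. Since the 5 annotated forms differ little in length (5141 to 5480 bases), the choice among them is uncertain. CG33229, on the same strand, shares 1500 bases with the gene in the current annotation and was listed at 0 in every library, so reads from the shared stretch could have been given to either. E(bx), a chromatin remodelling gene within 3 kb on the other strand, had 161 and 157 FPKM in OK107, 116 and 129 in Tdc2, 187 in R57C10 and 118 in whole brain. Its order across groups, with R57C10 highest, was unlike that of CR42862. CG42846, also within 3 kb, had 9.31 and 10.4 FPKM in OK107, 2.79 and 4.94 in Tdc2, 8.90 in R57C10 and 1.85 in whole brain, and was higher in OK107 than in Tdc2 (log2 difference 1.19, SE 0.24, limma adjusted p = 0.0150). CG34453 was likewise higher in OK107 than in Tdc2 by 0.77 (SE 0.17, adjusted p = 0.0183), while CG34454 did not pass (0.08, SE 0.22). From R57C10 the OK107 difference was 0.13 (SE 0.29) in CG42846, −0.32 (SE 0.21) in CG34453 and −0.11 (SE 0.27) in CG34454. These are unlike the 0.89 of CR42862. All 3 were higher in nuclei than in whole brain, by 1.48, 1.72 and 1.46 for CG42846, CG34453 and CG34454. Strand in the counting is unknown, so reads of neighbours that reach into one another cannot be told apart.

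The difference of CR42862 from whole brain was smaller in the other nuclei. On the FPKM scale it was 9.65- and 9.03-fold higher in OK107, 3.99- and 2.31-fold higher in Tdc2 and 2.13-fold higher in R57C10 than in whole brain. On the log2(FPKM + 1) scale these came to 1.09 (SE 0.19), 0.36 (SE 0.19) and 0.21 (SE 0.22), and the last is within its error. This scale understates differences at levels under 1 FPKM.

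roX1 and roX2, the RNAs of the male dosage compensation complex that coats the X chromosome, were left out of the set by its rule and are given for comparison. roX1 had 6.53 and 7.15 FPKM in OK107, 3.53 and 3.54 in Tdc2 and 6.27 in R57C10, against 0.0122 in whole brain. Its nuclei libraries overlap those of Hsromega in level. roX1 reached 1 FPKM in nuclei libraries only, so its difference from whole brain is given without a test. It was 2.65 on the log2(FPKM + 1) scale (SE 0.15). roX2 ran from 0.0385 to 0.415 FPKM in nuclei and was listed at 0 in whole brain. Both RNAs are made in males, and the labels do not give the sexes in each library. The yolk protein gene Yp1, which is expressed mainly in females, had 22.6 and 23.7 FPKM in OK107, 4104 and 3428 in Tdc2 and 227 in R57C10, against 2113 in whole brain. It was thus far from even across libraries, and its part in the roX1 difference was not tested.

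snoRNA:Me28S-G980, a small nucleolar RNA of 71 bases named for the position in 28S ribosomal RNA that it marks, had 1.85 and 2.29 FPKM in OK107, 2.12 and a listed 0 in Tdc2 and 2.64 in R57C10, against 0.906 in whole brain. The 4 nuclei libraries with a value above 0 lay above whole brain. The gene passed the level threshold through these 4 libraries only, with whole brain under it, so nothing is read from that order. The listed 0 in Tdc2 b would allow up to 1.16 FPKM at 3 reads. At the depth implied by the steps between low FPKM values, these levels correspond to 3.50 to 6.67 reads in the 4 nuclei libraries above 0 and to 3.72 in whole brain. The 95% counting intervals of the levels were 1.03 to 5.53 FPKM in R57C10 and 0.231 to 2.40 in whole brain, and they overlap. A difference was not detectable at this depth. The intervals cover counting error only and take the whole gene length; if the authors' estimates used a shorter effective length, the reads are fewer still.

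In the current annotation this snoRNA lies within an intron of sta, which encodes a protein of the small ribosomal subunit. sta had 17.2 and 20.1 FPKM in OK107, 74.7 and 53.5 in Tdc2 and 12.9 in R57C10, against 30.7 in whole brain. The host gene was highest in Tdc2, and the few reads of the snoRNA do not let its groups be ranked. The gene snoRNA:M overlaps it by 32 bases on the same strand and was listed at 0, so reads of both could have been given to either. Among 8 genes of the proteins that bind small nucleolar RNAs, 3 were lower in nuclei (Nop56, NHP2 and CG4038), none was higher, and Fib, nop5, hoip, Nop60B and CG7637 did not pass. The share lower is near the 30.8% of all genes tested. Their median difference was −0.39, against −0.07 over all genes tested. After median centring 1 of the 8 was lower and 1 higher, and after quantile normalization 2 were lower.

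mt:tRNA:C, the mitochondrial tRNA for cysteine, was the only one of the 6 genes lower than whole brain in every nuclei library. It had 3.00 and 3.59 FPKM in OK107, 3.44 and 15.3 in Tdc2 and 2.14 in R57C10, against 22.9 in whole brain. Its level in whole brain was 1.50-fold that of Tdc2 b and between 6.38- and 10.7-fold that of the other 4 nuclei libraries. The mean of the nuclei groups differed from whole brain by −2.30 on the log2(FPKM + 1) scale (SE 0.67, limma adjusted p = 0.0342). By kind of nuclei the differences were −2.48 in OK107 (SE 0.74, adjusted p = 0.0391), −1.49 in Tdc2 (SE 0.74, adjusted p = 0.145) and −2.93 in R57C10 (SE 0.85, adjusted p = 0.0354). The call for the mean of nuclei was lost without OK107 a (adjusted p = 0.130) and without OK107 b (adjusted p = 0.122), which leaves the Tdc2 pair, 4.45-fold apart in this gene, as the only measure of spread. The Tdc2 pair also straddles the date tags. Without Tdc2 a the difference of Tdc2 from whole brain was −0.55, and without Tdc2 b it was −2.43. Within the later tag the levels were 15.3 FPKM in Tdc2 b and 2.14 in R57C10, against 22.9 in whole brain. With the tag in the model, where its effect comes from the Tdc2 pair alone and 1 residual degree of freedom is left, the differences were −0.60 in OK107, −0.55 in Tdc2 and −1.36 for the mean of nuclei.

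The reads behind mt:tRNA:C are few. Its levels correspond to between 4.72 and 5.30 reads in OK107 a, OK107 b, Tdc2 a and R57C10, to 34.4 reads in Tdc2 b and to 82.0 in whole brain. The 95% counting intervals were 0.666 to 5.11 FPKM in R57C10 and 10.6 to 21.3 in Tdc2 b, against 18.2 to 28.4 in whole brain. On these intervals the gap between whole brain and 4 of the nuclei libraries was larger than counting error, while Tdc2 b overlapped whole brain. The intervals take the whole gene length of 62 bases, while reads were 50 bases long. If the authors' estimates used a shorter effective length, the reads are fewer and the intervals wider, and the gap may not hold.

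mt:tRNA:W, the mitochondrial tRNA for tryptophan, showed no such order. It was listed at 0 in OK107 a, at 3.37 FPKM in OK107 b, at 0 and 3.91 in Tdc2 and at 0 in R57C10, against 2.78 in whole brain. On the whole gene length the 3 values above 0 correspond to between 5.29 and 10.6 reads. The OK107 pair and the Tdc2 pair each hold 1 listed 0. Where it was listed at 0, a count of 0 (up to 3 reads) would allow up to 1.28 to 1.95 FPKM. Its difference of the mean of nuclei from whole brain, −1.18 (SE 1.09), was about its own error. The 2 tRNA genes overlap by 8 bases on opposite strands, and whether counting used strand is not given in the sources used here.

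The protein genes of the mitochondrial genome were mostly listed at 0 as well. Of 12 looked up, 9 were at 0 in every library. mt:ATPase6, a subunit gene of the ATP synthase, had 0.197 and 0.241 FPKM in OK107, 0.862 and 1.4 in Tdc2 and 0.141 in R57C10, against 3.71 in whole brain (log2 difference −1.72, SE 0.19, limma adjusted p = 0.00211). Its order across groups was that of mt:tRNA:C by group mean, with R57C10 lowest, then OK107, then Tdc2, and whole brain highest. At the implied depth 1 read on 1 kb came to between 0.0173 FPKM in whole brain and 0.0429 in Tdc2 a. The levels of mt:ATPase6 in OK107 and R57C10 thus rest on few reads, and the order of these groups is uncertain. mt:CoIII, a subunit gene of cytochrome oxidase, was at or under 0.0799 FPKM in nuclei, against 0.820 in whole brain, and was too low for the test. mt:ND4L had 0.292 FPKM in OK107 a, 0.208 in Tdc2 b and a listed 0 in the other 3 nuclei libraries, against 0.154 in whole brain. These values are near the floor, so no order is read from them.

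**Figure D3:**
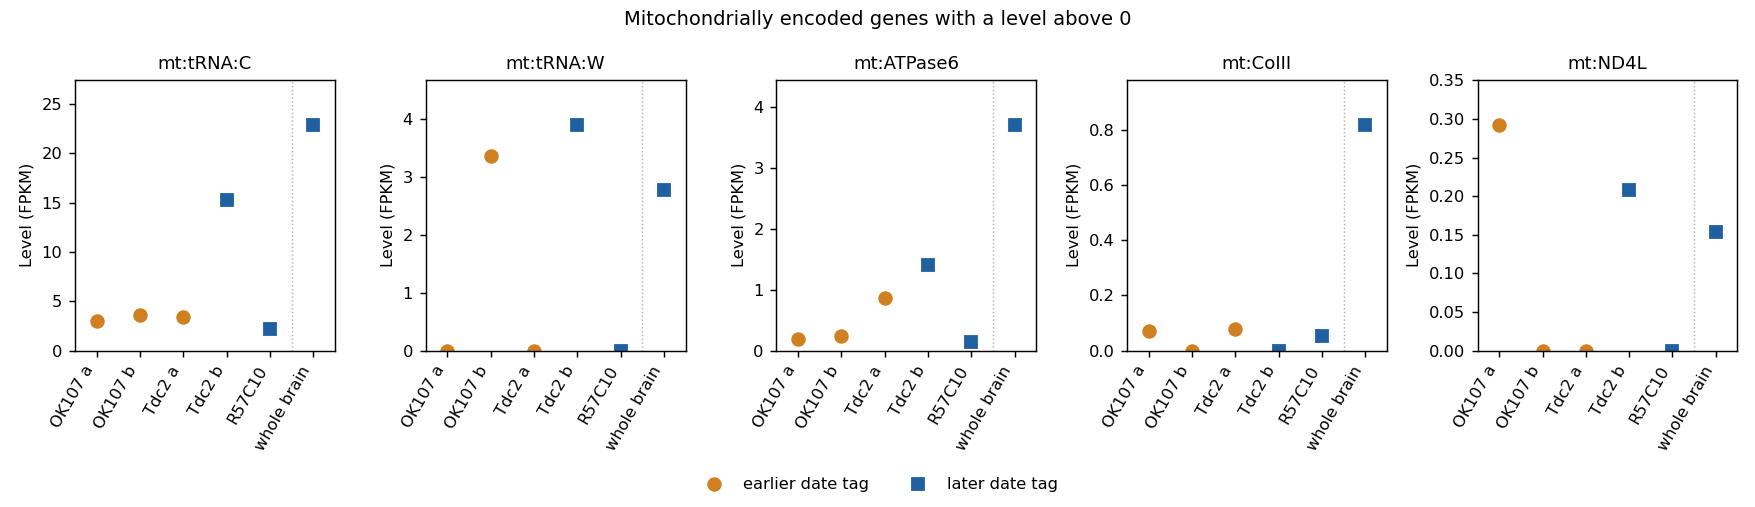
Level (FPKM, linear axis from 0) of the 2 mitochondrial tRNA genes and of the 3 mitochondrial protein genes above 0; each point is 1 library, circles carry the earlier and squares the later date tag, and the dotted line sets whole brain apart. mt:tRNA:C, mt:ATPase6 and mt:CoIII are highest in whole brain, at 22.9, 3.71 and 0.820 FPKM, and mt:tRNA:W and mt:ND4L are not.

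Proteins that act with other noncoding RNAs were read beside these genes, although their RNA partners were listed at 0. Of 6 genes of the signal recognition particle, which works with 7SL RNA at the endoplasmic reticulum, Srp9, Srp19 and Srp54k were lower in nuclei, none was higher, and Srp14, Srp68 and Srp72 did not pass, with a median difference of −0.63, against −0.07 over all genes tested. The 3 of 6 called, all lower, compare with 57.7% of all genes tested that were called, and with 30.8% of all genes tested that were lower. The same count was lower after median centring and after quantile normalization. Of 8 genes of the exosome, which trims and degrades nuclear RNA, 6 were tested and 1 was lower (Csl4, limma adjusted p = 0.0469), with a median difference of −0.18. Rrp6, Dis3, Rrp40, Mtr3 and Ski6 did not pass, and Rrp4 and Rrp46 were below the filter. After median centring none of the 6 passed, and after quantile normalization 2 were lower, with a median of −0.51. The shares called in either direction lie below the background. For the signal recognition particle the share lower, 3 of 6, lies above the 30.8% of all genes tested, and that excess was not tested.

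Counted over the 6 genes, calls in the comparisons with whole brain were about as frequent as among all genes tested. In nuclei against whole brain 3 were higher and 1 lower at a limma adjusted p under 0.05, against the background of 57.7% (27.0% higher and 30.8% lower). The share is near the background and is not a result about these genes. By kind of nuclei 3 of 6 passed in OK107 (background 53.5%), 2 in Tdc2 (50.3%) and 3 in R57C10 (55.1%). Between kinds of nuclei 1 of 6 passed in OK107 against Tdc2 (48.3%) and 1 in OK107 against R57C10 (25.0%), both times CR42862. That gene had entered the set through its OK107 libraries, so nothing is read from these calls. None passed in Tdc2 against R57C10 (35.9%), where 1 had an unadjusted p under 0.05. All nuclei libraries were above whole brain for 3 of the 6 genes and for 28.2% of all genes tested, and below it for 1 of the 6 and for 34.3%. Of the 3 above, CR43459 and CR42862 had entered the set through nuclei libraries alone. This count and the counts of calls are thus partly fixed by the choice of genes. These comparisons share the whole brain library, so they are not independent of each other.

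**Figure D4:**
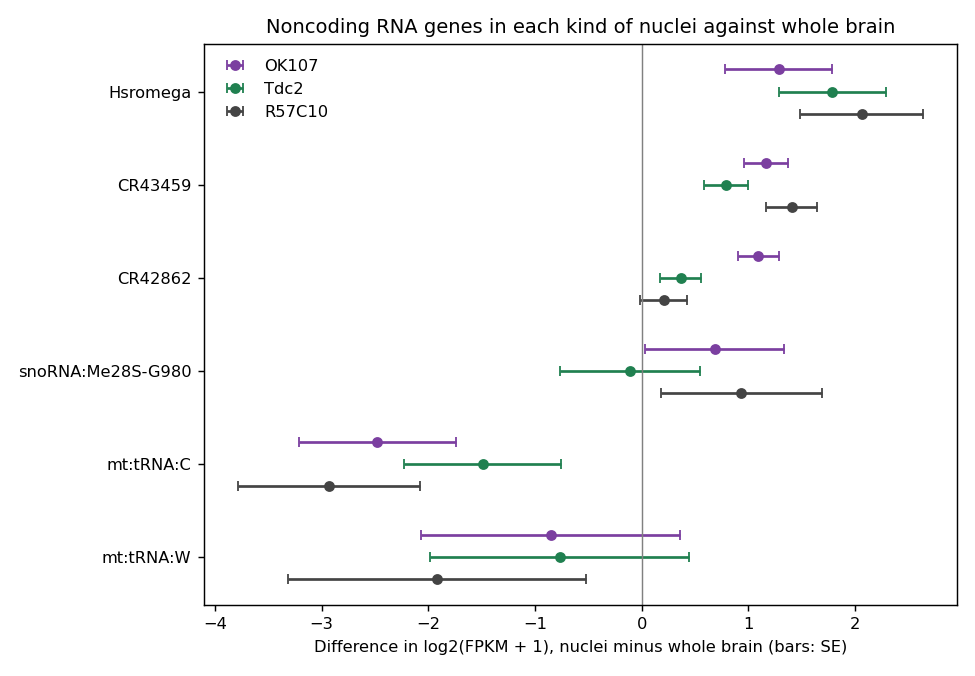
Difference in log2(FPKM + 1) between each kind of nuclei and whole brain for the 6 genes (rows), with OK107, Tdc2 and R57C10 from top to bottom within a row; bars are the standard error of the limma fit. Hsromega, CR43459 and CR42862 lie right of 0 in each kind of nuclei, mt:tRNA:C lies left of it, and the bars of snoRNA:Me28S-G980 and mt:tRNA:W are wide.

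These tests lean on little replication. R57C10 and whole brain are 1 library each and borrow their spread from the pairs of OK107 and of Tdc2, whose log2 ratios had an SD of 0.17 and 0.39 across genes. With nuclei and whole brain as the only 2 groups, so that differences between kinds of nuclei count as spread, none of the 6 genes passed (limma, Hsromega adjusted p = 0.109, mt:tRNA:C adjusted p = 0.150), and 4.50% of all genes did. An exact permutation test of 5 libraries against 1 cannot give a two-sided p below 0.167.

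The authors' deposited table of library pairs, which gives a q-value only where it is under 0.05, held 3 values for these genes. It lists whole brain over R57C10, so that a negative log2 ratio means higher in R57C10: −2.53 for Hsromega (q = 0.0287) and −3.19 for CR43459 (q = 0.0183). For CR42862 the authors' deposited table lists a log2 ratio of 2.08 for OK107 b over R57C10 (q = 0.0253). No other pair in it carried a q-value for any of the 6 genes. CR43459 had entered the set through nuclei libraries only and CR42862 through OK107 alone. Their q-values are therefore listed as deposited, and nothing is read from them.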

How the data were processed

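The tables hold 6 libraries for 7 labelled samples. The 1 R57C10 column was treated as 1 library, and whether it is either of the 2 R57C10 samples or a pool of them is not stated. The labels' protocols name a NuGEN Ovation kit and Illumina reads of 50 bases. CASAVA 1.8, TopHat 1.4.0, Cuffdiff 1.3.0 and bedtools 2.15 and genome build dm3 are named in the submitters' processing notes. The authors made the deposited FPKM values of genes and isoforms with Cuffdiff. Per the file headers, a value is missing where Cuffdiff reported another status than OK. The q-values (adjusted p-values) and log2 ratios of library pairs were also deposited by the authors. Columns that repeat a library, 4 in each of the tables, were not used.

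The genes, lists and comparisons were chosen with earlier results of these data known. All 6 genes are named; the other genes named are the members of each partner list, neighbours in the annotation, and the 3 genes just outside the threshold. The neighbours were chosen after values had been seen. RefSeq types were matched for 1299 of 1432 CR numbers, and the annotation (Ensembl BDGP6) is of another build than the files, so it gave names, lengths and overlaps only and no coordinates. No sequence was printed.

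Differences were tested with limma 3.58.1 (R 4.3.3) on log2(FPKM + 1), using eBayes with trend and robust set, with 4 group means over 6 libraries and 2 residual degrees of freedom, for 9605 genes with a value in every library and at least 1 FPKM in at least 2 libraries. The contrast of nuclei with whole brain takes the mean of the 3 nuclei groups. P-values were adjusted by Benjamini-Hochberg over all genes tested, with a threshold of 0.05. The design had allowed for counts, and FPKM was the unit found. For nuclei against whole brain, simulated data gave 17% of 2-fold and 69% of 4-fold changes recovered and 1.15% of calls false. In the simulation 100 genes were changed at each size in whole brain, and every other gene had 1 mean for all 6 libraries. It held no differences by cell type, tissue or date tag, so 1.15% is not the false share of the real calls. Depth was estimated from steps between low FPKM values of 5619 genes of at least 600 bases, at 23.3 to 57.8 M reads per library. Between 61.2% and 69.5% of those values lay within 0.2 of a whole read, where evenly spread values would give 40%, so implied reads are approximate. Separate cultures or animals are not stated for the pairs, so p-values measure the spread between these libraries only. As alternatives, values were median centred or quantile normalized, the filter was loosened or tightened, the pseudocount was set to 0.1 or 5, limma was run with neither trend nor robust, the date tag or spike-in status was added to the model, nuclei were pooled into 1 group, and each OK107 or Tdc2 library was left out.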

Additional observations from a re-analysis of the deposited data

Results flagged for a closer look

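CR42862 stood out for its level in OK107 against the other kinds of nuclei. Its difference on the log2(FPKM + 1) scale was 0.89 against R57C10 (SE 0.19) and 0.73 against Tdc2 (SE 0.16), with 2 of 2 OK107 libraries above every other library. The OK107 levels brought the gene into the set, so the differences are a description with no test. After median centring they were 0.43 and 0.42, and after quantile normalization 0.41 and 0.59. No group has 4 or more libraries, so none was examined for a library far from the others.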

How the results depend on the processing

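The number of the 6 genes that passed in R57C10 against whole brain was 3, and it stayed between 2 and 4 under every alternative run for it. In nuclei against whole brain it was 4, fell to 2 of 2 tested with at least 1 FPKM in every library and to 0 with 2 groups, and ran from 2 to 5 when 1 library was left out. In OK107 against whole brain it was 3, with 1 after quantile normalization, 1 with at least 1 FPKM in every library, 5 with the date tag in the model, and 2 to 5 with 1 library left out. In Tdc2 against whole brain it was 2, with 1 after quantile normalization, 1 with the filter in every library, 0 with a pseudocount of 5, 4 with the date tag, and 1 to 5 with 1 library left out. In OK107 against R57C10 it was 1, with 0 after median centring, 0 when quantile normalized, 0 with the filter in every library, 2 with the date tag, 2 with spike-in status, and 0 to 3 with 1 library left out. In Tdc2 against R57C10 it was 0, with 1 after median centring, 1 when quantile normalized, 2 with the date tag, 2 with spike-in status, and 0 to 3 with 1 library left out. In OK107 against Tdc2 it was 1, with 0 after median centring, 0 when quantile normalized, 0 with the filter in every library, 2 with the date tag, and 0 to 4 with 1 library left out. Across isoforms it was 1, with 0 after quantile normalization, 2 with the filter in every library, and 0 to 3 with 1 library left out. The filter in every library leaves 2 of the 6 genes by construction; other causes were not tested. The background moved too: in nuclei against whole brain 39.8% to 76.3% of genes passed with 1 library left out, 74.1% with the date tag and 49.2% after quantile normalization.

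Hsromega was higher in nuclei than in whole brain under all 14 alternatives, by 0.99 to 2.33, with adjusted p from 0.000136 to 0.109 and 13 of 14 past the threshold. mt:tRNA:C was lower under all 14, with differences of −2.61 to −1.36, with adjusted p from 7.95e-05 to 0.150 and 11 of 14 past it. Signs turned where a difference had not passed. With the date tag in the model Hsromega became 0.46 in OK107 against R57C10, 0.34 in Tdc2 against R57C10 and 0.11 in OK107 against Tdc2, and CR43459 became 0.076 in OK107 against R57C10. With 1 Tdc2 library left out, Hsromega ran from −0.89 (without b) to 0.34 (without a) in Tdc2 against R57C10, and from −1.12 (without a) to 0.11 (without b) in OK107 against Tdc2. In OK107 against R57C10 mt:tRNA:C became −0.0042 after median centring and −0.047 after quantile normalization. After quantile normalization CR42862 became −0.16 in Tdc2 against whole brain and −0.18 in Tdc2 against R57C10. Differences of mt:tRNA:W changed sign in 11 of 94 values and those of snoRNA:Me28S-G980 in 7 of 94. No paired analysis was possible because the columns carry no replicate number from the labels and whole brain is 1 library. Depth limits snoRNA:Me28S-G980 and both tRNA genes, which rest on few reads, and the low levels of the mitochondrial protein genes.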
